A study of Arabidopsis thaliana with 6 samples.

Results

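The miR165 and miR166 family of Arabidopsis thaliana is encoded by 9 loci, MIR165a, MIR165b and MIR166a to MIR166g. They were chosen by their gene IDs, not by a measured value, and make up 9 of the 60936 IDs that the count tables list and 9 of the 164 microRNA loci that have an ID of their own. No joined ID, the name given to a segment shared by several genes, held one of them.

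Mature miR165 and miR166 are small RNAs that guide the Argonaute protein AGO1 to messenger RNAs of the class III homeodomain-leucine zipper (HD-ZIP III) transcription factors, which are then cut. In the plant body this restricts HD-ZIP III activity to the upper side of leaves, to the shoot apex and to parts of the vascular tissue. AGO10, a close relative of AGO1, binds miR165 and miR166 and keeps them from AGO1 in the shoot apex.

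Small RNA was sequenced from sorted pollen of accession Col, in 3 wild-type libraries (numbered 15, 19 and 25) and 3 libraries of grains with paps1-3 (16, 20 and 26), an allele of PAPS1, the gene of a nuclear poly(A) polymerase that adds adenosine tails to messenger RNAs. No other allele or treatment is labelled, and the promoter, transgene or marker by which grains were sorted is not stated in the sources. Wild-type and mutant grains were sorted out of one sample in each of 3 isolations, so genotype and sorted fraction cannot be told apart. The labels name no plants behind an isolation, so the spread behind every p-value is that between libraries and may be technical.

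The wild-type libraries held 9312167 to 10139424 counted reads of 18 to 28 nt and the paps1-3 libraries 5562287 to 9922763. Libraries 15 and 16 stood apart from the other 4 on the second principal component, which carried 20.25% of the variance. On PAPS1 itself 7, 4 and 4 wild-type reads and 0, 0 and 1 mutant reads were counted. These are too few to check the labels firmly, and small RNA reads on PAPS1 or on a marker gene do not measure its messenger RNA. Of the marker genes of pollen, the vegetative-cell list (5 genes) gave 1428 to 1700 RPM (reads per 1e6 counted reads) in wild type and 903 to 1390 in paps1-3. Its members did not move together: with the edgeR fit over all lengths described below for the loci, PPME1 and VEX1 were higher in paps1-3, at 1.60 and 2.37 on the log2 scale (adjusted p = 0.00219 and 0.000237), and PTEN1 was lower, at −2.12 (adjusted p = 0.000175). These 3 are named because their values were seen to differ. The sperm-cell list (6 genes with an ID of their own, GEX2 being listed only joined to another gene) gave 14.4 to 14.6 against 7.58 to 8.97. Of its 4 genes tested in that fit, DAZ2 was lower, at −1.95 (edgeR adjusted p = 0.00357). HAP2, GEX1 and MGH3 stood at 0.58, 0.41 and 0.20 and were not called. They too are named after their values were seen. The leaf photosynthesis list (13 genes) gave 16.1 to 28.7 RPM against 5.81 to 13.7, and the tapetum list (7 genes, the anther layer around the grains) 1.84 to 3.16 against 0.632 to 1.11, with no gene of these 2 lists at 0 in all libraries.

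Every locus is annotated as a microRNA gene on the nuclear genome. In the RefSeq annotation of TAIR10.1, MIR165a (AT1G01183) lies at chr1:78927-79037 on the minus strand and MIR165b (AT4G00885) at chr4:369831-370012 on the minus strand. MIR166a (AT2G46685) lies at chr2:19176108-19176277 on the plus strand and MIR166b (AT3G61897) at chr3:22922206-22922325 on the plus strand. The other five are on chromosome 5. MIR166c (AT5G08712) at chr5:2838635-2838773 and MIR166d (AT5G08717) at chr5:2840622-2840734 are neighbours on the plus strand. MIR166e (AT5G41905) lies at chr5:16775520-16775662 on the minus strand, MIR166f (AT5G43603) at chr5:17516301-17516405 on the plus strand and MIR166g (AT5G63715) at chr5:25504798-25504919 on the plus strand. The count tables carry no coordinates, and each locus is a single segment there.

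The mature sequences are shown because the whole family comes down to very few letters. They were read from TAIR10.1 at the RefSeq coordinates of each mature product and are written 5′ to 3′, with the seed (bases 2 to 8) in capitals. The first is made by MIR165a and MIR165b and the second by all 7 MIR166 loci.
miR165a-3p: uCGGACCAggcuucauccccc
miR166a-3p: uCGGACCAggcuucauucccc
The products share the seed CGGACCA and differ by a single substitution, C17U, counted from the 5′ end from miR165a-3p to miR166a-3p. A search of both strands of the 5 nuclear chromosomes found the miR165 sequence 2 times and the miR166 sequence 7 times, each time at one of the loci of that name and nowhere else. A full-length 21-nt read therefore tells miR165 from miR166 and cannot tell MIR165a from MIR165b, or any MIR166 locus from the other six.

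RefSeq also lists products from the other arm of the hairpin for 4 loci, and these are shown because they are less alike.
miR165a-5p: gGAAUGUUgucuggaucgagg
miR166a-5p: gGACUGUUgucuggcucgagg
miR166e-5p: gGAAUGUUgucuggcacgagg
The miR166b-5p sequence is the same as miR166a-5p, and the seeds (in capitals) are GAAUGUU for miR165a-5p and miR166e-5p and GACUGUU for miR166a-5p. The count tables give the length of a read and not its sequence or arm.

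The bases around the mature sequence are shown because they decide which locus a longer read can come from. Each line gives the miR165 or miR166 sequence of a locus in capitals, with 4 flanking genomic bases on either side in lower case, on the strand of the gene in TAIR10.1.
MIR165a: atccTCGGACCAGGCTTCATCCCCCccaa
MIR165b: atcgTCGGACCAGGCTTCATCCCCCtcaa
MIR166a: gtctTCGGACCAGGCTTCATTCCCCccaa
MIR166b: gtcgTCGGACCAGGCTTCATTCCCCccaa
MIR166c: attcTCGGACCAGGCTTCATTCCCCctaa
MIR166d: attcTCGGACCAGGCTTCATTCCCCccaa
MIR166e: gacgTCGGACCAGGCTTCATTCCCCtcaa
MIR166f: gatgTCGGACCAGGCTTCATTCCCCtcaa
MIR166g: attcTCGGACCAGGCTTCATTCCCCtcaa
A read with 1 extra base at the 3′ end has a single source in the genome for MIR165a and for MIR165b. For miR166 such a 22-nt read fits MIR166a to MIR166d alike (4 loci) or MIR166e to MIR166g alike (3 loci). A read with 1 extra base at the 5′ end has a single source for MIR165a, MIR165b and MIR166a, and 3 possible sources for each other MIR166 locus. Reads of 20 nt or 19 nt that lack bases at the 3′ end are shared by all loci of the same mature sequence.

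In wild-type pollen the family was the most abundant of the 31 microRNA families with at least 1000 reads. It took 47.0%, 35.0% and 32.2% of the reads on microRNA loci in wild-type 15, 19 and 25, and 39.9%, 37.3% and 32.1% in paps1-3 16, 20 and 26. The highest and the lowest of these shares were in wild-type 15 and paps1-3 26, and the genotypes overlapped (38.1% ± 7.88 and 36.4% ± 3.95, SD, n = 3 each). Library 15 had the lowest share of reads on microRNA loci among the wild-type libraries, 2.55% of its counted reads against 3.22% and 3.66% in libraries 19 and 25, while the paps1-3 libraries had 1.17% to 1.55%. The miR158 family came next, with wild-type and paps1-3 means of 27.3% ± 4.21 and 26.8% ± 2.86 (SD, n = 3 each). The miR156 and miR157 family (12 loci), which targets SPL transcription factors and is the other large multi-locus family here, took 13.3% ± 1.53 in wild type and 6.70% ± 1.03 in paps1-3, with no overlap.

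**Figure D1:**
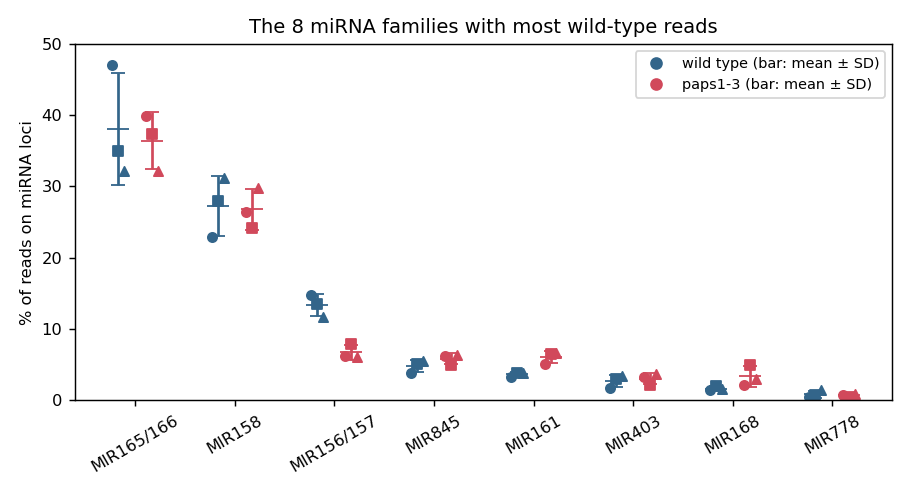
Share of the reads on microRNA loci (y axis, %) taken by the 8 families with most wild-type reads; circles are libraries 15 and 16, squares 19 and 20, triangles 25 and 26, and bars are mean ± SD (n = 3). The miR165 and miR166 family lies between 32.2% and 47.0% in wild type and between 32.1% and 39.9% in paps1-3. The miR156 and miR157 family is lower in every paps1-3 library than in any wild-type library.

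In RPM, both members of the family were lower in paps1-3, and miR166 was lower by more. The 2 MIR165 loci together held 7979, 7682 and 8301 RPM in the wild-type libraries against 3545, 4365 and 3620 in the mutant. The 7 MIR166 loci together held 4000, 3586 and 3470 RPM against 1117, 1432 and 1030. Neither pair of groups overlapped, and the paps1-3 mean was 0.481 times the wild-type mean for miR165 and 0.324 times for miR166. The share of counted reads on all microRNA loci had a paps1-3 mean 0.443 times that of wild type. On total counted reads the edgeR fit over all lengths had a median log2 fold change of −0.94 over all features and called 40.3% lower. The miR165 and miR166 values are sums over chosen loci, given without a test. In bulk pollen, fewer cells of a type and less RNA per cell cannot be told apart, nor can they be told from a rise of other reads in the total.

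The ratio of miR165 to miR166 within a library does not depend on how libraries are scaled. Over all lengths it was 1.99, 2.14 and 2.39 in wild-type 15, 19 and 25 and 3.17, 3.05 and 3.52 in paps1-3 16, 20 and 26. Every paps1-3 library lay above every wild-type library, and the means were 2.18 ± 0.201 and 3.25 ± 0.242 (SD, n = 3 each). At 21 nt alone, where the mature sequences tell miR165 from miR166, the ratio was 2.02, 2.20 and 2.45 in wild type, against 3.19, 3.15 and 3.60 in paps1-3. The ratio depended on the length of the read: in wild type it was 1.09, 0.901 and 1.04 at 20 nt and 0.139, 0.216 and 0.157 at 19 nt, so that among the few 19-nt reads miR166 loci exceeded miR165 loci. In paps1-3 it was 2.04, 0.894 and 1.61 at 20 nt, overlapping wild type, and 0.864, 0.396 and 0.452 at 19 nt, above wild type. At 22 nt it was 2.27, 1.75 and 3.30 in wild type, against 5.47, 3.43 and 6.09 in paps1-3, where paps1-3 20 lay just above wild-type 25.

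**Figure D2:**
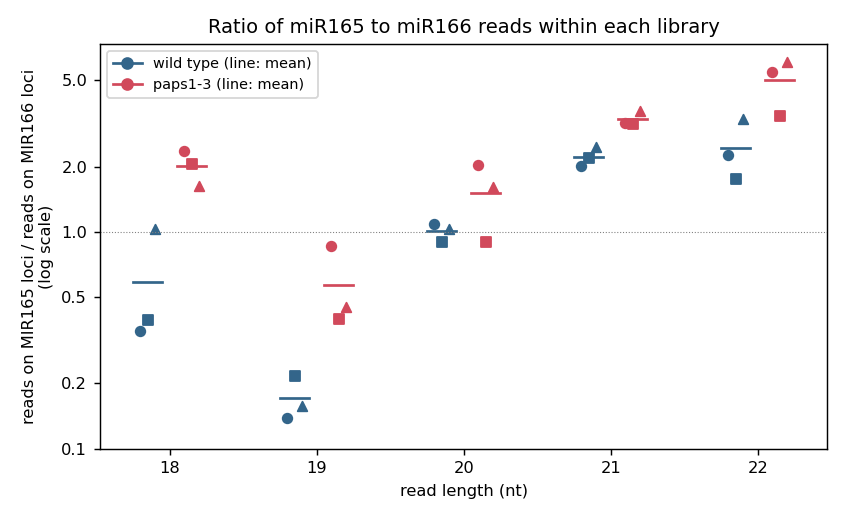
Reads on the 2 MIR165 loci divided by reads on the 7 MIR166 loci (y axis, log scale) by read length in nt (x axis); each point is a library (circles 15 and 16, squares 19 and 20, triangles 25 and 26) and lines are means. At 21 nt the wild-type libraries lie at 2.02 to 2.45 and the paps1-3 libraries at 3.15 to 3.60, and the groups overlap at 20 nt alone.

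The same shift showed in how the family's reads were spread over its loci. MIR165a held 34.1%, 35.1% and 36.3% of the family's reads in wild-type 15, 19 and 25 against 38.8%, 38.3% and 40.0% in paps1-3 16, 20 and 26, and MIR165b a mean of 33.3% ± 0.841 and 37.3% ± 0.416 (SD, n = 3 each). Each MIR166 locus held a mean of 4.40% to 4.90% in wild type and 3.27% to 3.63% in paps1-3. For none of the 9 loci did the groups overlap, but the shares sum to a whole and were not tested. Loci with one mature sequence had similar counts, so these shares restate the ratio above and are not 9 separate findings.

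MIR165a and MIR165b were the most abundant members at 21 nt. MIR165a held 40462, 37757 and 38830 reads of 21 nt in wild-type 15, 19 and 25 and 14002, 12059 and 17998 in paps1-3 16, 20 and 26. MIR165b held 39067, 35800 and 36848 in wild type, against 13448, 11741 and 17089 in paps1-3. MIR165a was slightly the higher in all 6 libraries, by 1.03 to 1.05 times, a gap of 2.06 to 7.22 times what Poisson counting error alone gives. Reads per locus were not divided by its annotated length, since the product has the same 21 nt at each.

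The MIR166 loci lay well below them and were nearly level with each other. MIR166a held 5874, 5075 and 4552 reads of 21 nt in wild type and 1326, 1136 and 1452 in paps1-3. MIR166b to MIR166g held 4251 to 5679 reads in a wild-type library and 1040 to 1422 in a paps1-3 library, and their order changed from library to library. MIR166a exceeded the mean of the other six by 1.04 to 1.09 times in every library. Among MIR166b to MIR166g the spread of the 21-nt counts was 0.872 to 1.40 times the Poisson error of their mean, so these 6 loci differed by about counting error and were not identical. The sources do not state how reads with several matches were assigned, and the values of loci with one mature sequence are not independent measurements.

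**Figure D3:**
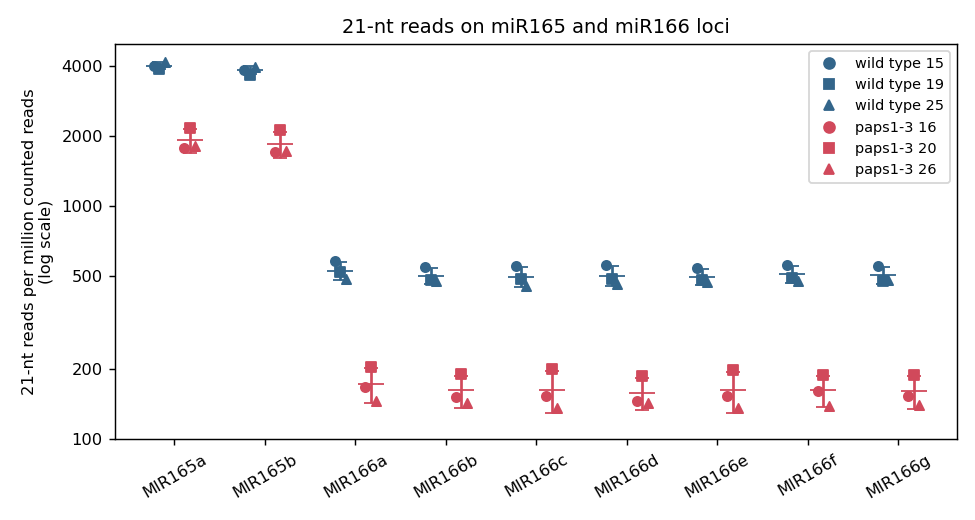
Reads of 21 nt in RPM over all counted reads of the library (y axis, log scale) at the 9 loci; points are libraries, bars mean ± SD (n = 3 per genotype). MIR165a and MIR165b lie between 3669 and 4170 in wild type and between 1699 and 2168 in paps1-3, and the 7 MIR166 loci at 456.5 to 579 and 136 to 204.

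The test of each locus came from fits over all features of a read length, with edgeR's quasi-likelihood test, trimmed-mean (TMM) scaling of the libraries and Benjamini-Hochberg adjustment, in which a feature counts as changed at an adjusted p below 0.05. At 21 nt the 7 MIR166 loci fell in paps1-3 and the 2 MIR165 loci did not pass the test. The 7 calls stand beside 5.73% of the 3213 tested features called lower (184 features), and since one mature sequence underlies them all they are not 7 separate findings. MIR166d fell by 1.07 on the log2 scale (SE 0.300, adjusted p = 0.0266), the largest drop of the group, and MIR166b by 1.02 (SE 0.299, adjusted p = 0.0319). Over the 7 loci the adjusted p ran from 0.0266 to 0.0403. For MIR165a the fitted log2 change was −0.45 (SE 0.273, adjusted p = 0.277) and for MIR165b −0.44 (SE 0.276, adjusted p = 0.291). The median log2 fold change was −1.01 over the 9 loci, −0.40 over the 82 microRNA loci tested and −0.21 over all features, and 19 of those 82 loci were called lower and 8 higher. The difference between the miR165 and the miR166 response was not itself tested.

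The labels do not name the pairs, so libraries with adjacent numbers were taken as pairs from correlations in these same counts. These pairs gave the same direction for every locus at 21 nt. Any other pairing would have done so too, since the scaled reads of the groups did not overlap at any of the 9 loci. For MIR166a the log2 difference of scaled reads was −1.11 between 15 and 16, −0.75 between 19 and 20 and −1.16 between 25 and 26. For MIR165a the same differences were −0.50, −0.23 and −0.62. With the pairs as a block the 7 MIR166 loci were again called lower, with edgeR adjusted p of 1.88e-05 to 5.02e-05, where the block called 17.7% of all features lower. Without libraries 15 and 16, a choice made after the data were seen, the 7 loci were called lower too, beside 5.80% of 3863 features. MIR166a then stood at −0.75 (edgeR adjusted p = 0.0343).

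How the libraries were scaled set which members passed. With the total of counted reads in place of TMM, all 9 loci fell at 21 nt, MIR165a by 1.06 (edgeR adjusted p = 0.00323) and MIR166a by 1.62 (adjusted p = 0.000268), beside 31.2% of all features called lower and a median of −0.82 over them. With scaling to the microRNA loci outside the family, none of the 9 was called at 21 nt, MIR165a standing at −0.24 (edgeR adjusted p = 0.671) and MIR166a at −0.82 (adjusted p = 0.125), with a median of 0.05 over all features. None was called either when ribosomal, transfer, small nuclear and small nucleolar RNA and organelle features were left out, or without wild-type 15, wild-type 19 or any one of the paps1-3 libraries 16, 20 and 26, and the MIR166 fold changes lay between −1.27 and −0.54 over all 6 left-out libraries, −1.27 being MIR166d without wild-type 25, where the 7 calls were kept. The summed marker lists of leaf, tapetum, sperm and vegetative cell also had paps1-3 ranges in RPM below the wild-type ranges. On total counted reads over all lengths 40.3% of all features were called lower, with a median of −0.94. On that scale 2 of the 5 vegetative-cell genes, PPME1 and VEX1, were higher in paps1-3 too, at 0.79 and 1.56 (edgeR adjusted p = 0.0186 and 0.00662). The part of these cell types in the result was not tested.

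**Figure D4:**
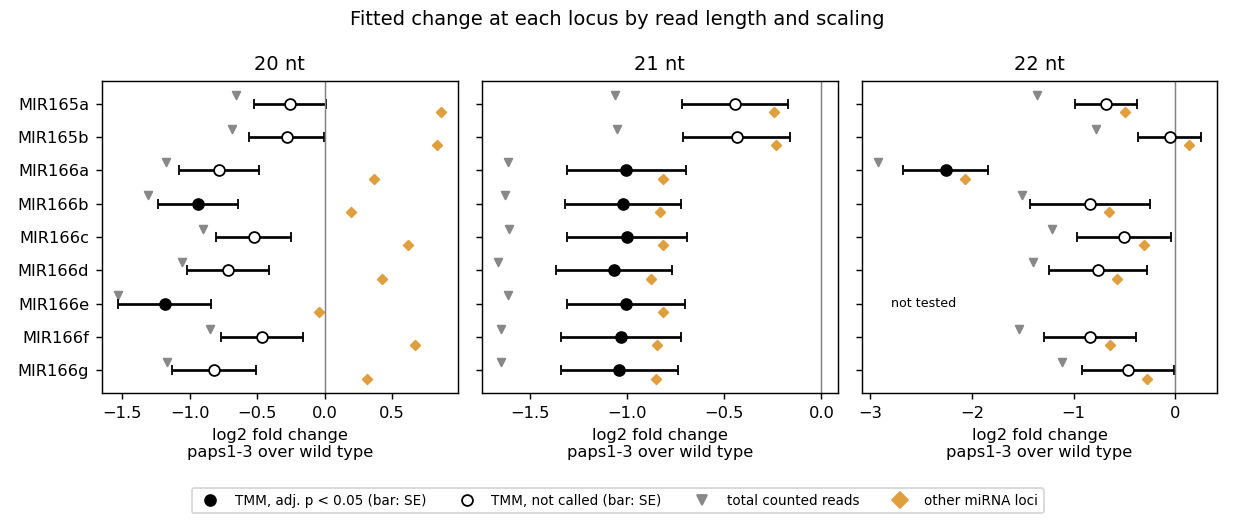
Log2 fold change of paps1-3 over wild type (x axis) for each locus at 20, 21 and 22 nt; circles are the TMM fit with SE (filled at an adjusted p below 0.05), triangles the fit on total counted reads and diamonds the fit scaled to other microRNA loci. At 21 nt the MIR166 loci lie near −1.0 and the MIR165 loci near −0.4 under TMM, and every value moves left with total reads and right with the microRNA scaling.

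Over all lengths together the TMM-scaled changes were smaller than at 21 nt and no locus was called, where 4% of 13464 tested features were called lower and 14.3% higher. The MIR166 loci ranged from −0.85 to −0.78 (edgeR adjusted p = 0.101 to 0.141). All 7 had an unadjusted p below 0.05 by edgeR, as did 4242 of the 13464 features. The MIR165 loci stood at −0.24 and −0.23 (edgeR adjusted p = 0.676 and 0.700). With the pairs of libraries as a block the 7 MIR166 loci were called lower (edgeR adjusted p = 0.00201 to 0.00371) beside 8.64% of all features. With total counted reads all 9 loci were called lower, beside 40.3% of all features and a median of −0.94 over them. The changes were then close to those at 21 nt on that scale, MIR166a at −1.64 and MIR165a at −1.06. The TMM factors of libraries 15 and 16 were 1.117 and 0.5498 over all lengths and 1.01 and 0.631 at 21 nt. In RPM the paps1-3 mean of MIR166b was 0.326 times that of wild type over all lengths and 0.323 times at 21 nt. The part of the scaling in the smaller TMM-scaled changes was not tested.

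Nearly all reads on these loci were 21 nt long. The wild-type mean share of 21-nt reads ran from 92.4% at MIR166a to 98.6% at MIR165b, and 2 of the 50 other microRNA loci with at least 50 reads in every library had a share above the lowest member, their median being 68.3%. In paps1-3 the share at MIR166a was 95.9%, 92.5% and 94.4%, against 94.0%, 91.4% and 91.8% in wild type. The groups overlapped at each of the 9 loci, and exact two-sided permutation tests gave p of 0.2 to 0.9 (Benjamini-Hochberg adjusted 0.675 to 0.9), where 3 libraries against 3 allow no p below 0.1. By the shape of the length distribution in wild type, the loci outside the family nearest to it were MIR778, with 96.9% of its reads at 21 nt, MIR823 with 95.5% and MIR162b with 92.3%. Their profiles differed from that of the family by 0.595, 2.06 and 5.21 percentage points, against a median of 29.2 over 50 loci.

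MIR166a departed from the other MIR166 loci among the reads of 22 nt. It held 249, 264 and 163 reads of 22 nt in wild-type 15, 19 and 25 and 16, 32 and 18 in paps1-3 16, 20 and 26. All paps1-3 values lay far below all wild-type values. MIR166b to MIR166g together held 131, 115 and 85 in wild type, against 33, 28 and 40 in paps1-3, so MIR166a alone had 65.5%, 69.7% and 65.7% of the 22-nt reads of miR166 loci in wild type and 32.7%, 53.3% and 31.0% in paps1-3. Of the reads at MIR166a itself, 3.99%, 4.76% and 3.29% were 22 nt long in wild type and 1.16%, 2.61% and 1.17% in paps1-3, again with no overlap. At MIR166b to MIR166g that share had a mean of 0.305% to 0.431% in wild type and 0.343% to 0.623% in paps1-3.

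At 22 nt, MIR166a fell by 2.26 on the log2 scale (SE 0.416, edgeR adjusted p = 0.00127), the one call among the 8 members tested, beside 2.93% of 3210 features called lower. It was called in each of the 16 alternatives, with log2 fold changes of −2.93 to −1.87 and an edgeR adjusted p of at most 0.0165. Each of the pairs was lower in paps1-3, at −2.90 between 15 and 16, −1.52 between 19 and 20 and −2.54 between 25 and 26. Any other pairing would also be lower, since the scaled reads of the groups did not overlap. MIR166e, with 4 to 21 reads of 22 nt in a library, did not pass the filter on low counts. Among MIR166b, MIR166c, MIR166d, MIR166f and MIR166g, which held 1 to 30 reads of 22 nt in a library, the log2 fold changes were −0.84 to −0.46 (edgeR adjusted p = 0.265 to 0.587). The 22-nt form with an extra 5′ base is one that the flanking bases above make particular to MIR166a. Of the 149 windows of 22 nt along its annotated hairpin, 128 occur once in the genome, and the tables do not tell the sequence or the arm of these reads.

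**Figure D5:**
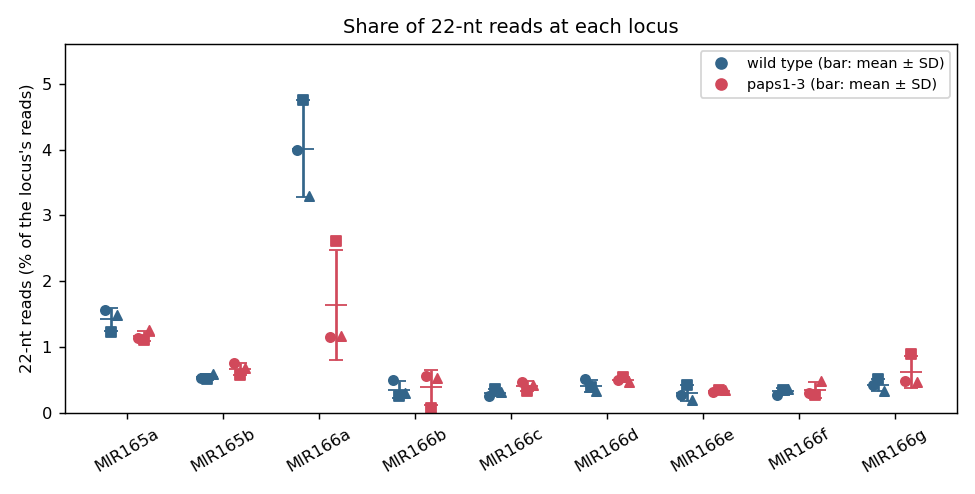
Share of the reads at each locus that are 22 nt long (y axis, %); points are libraries (circles 15 and 16, squares 19 and 20, triangles 25 and 26) and bars mean ± SD (n = 3). MIR166a stands at 3.29% to 4.76% in wild type and 1.16% to 2.61% in paps1-3, and the other MIR166 loci stay below 1%.

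MIR165a and MIR165b also differed at 22 nt, where a read extended by a genomic base has a single source. MIR165a held 648, 476 and 592 reads of 22 nt in wild type and 164, 137 and 233 in paps1-3. MIR165b held 213, 188 and 226 in wild type, against 104, 69 and 120 in paps1-3. The ratio of MIR165a to MIR165b was therefore 3.04, 2.53 and 2.62 in wild type, against 1.58, 1.99 and 1.94 in paps1-3, with no overlap, while at 21 nt it stayed at 1.03 to 1.05 in both genotypes. For MIR165a the fitted log2 change was −0.68 (SE 0.305, edgeR adjusted p = 0.166) and for MIR165b −0.05 (SE 0.311, adjusted p = 0.948). With the pairs as a block MIR165a was called lower (edgeR adjusted p = 0.0104), so that the block called 2 of the 8 members beside 8.35% of all features. With total counted reads 5 of the 8 were called lower, MIR165a and MIR165b among them, beside 25.8% of all features.

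Reads of 20 nt were few at every locus and their changes depended on the scaling. MIR166e held 57, 105 and 84 reads of 20 nt in wild type and 11, 28 and 26 in paps1-3. MIR166b held 59, 100 and 83 in wild type, against 20, 28 and 27 in paps1-3. These were the 2 loci of 9 called lower, MIR166e at −1.18 (SE 0.344, edgeR adjusted p = 0.0263) and MIR166b at −0.94 (SE 0.299, adjusted p = 0.0384), beside 9.6% of 2562 features. The other five MIR166 loci ranged from −0.82 to −0.47 and the MIR165 loci stood at −0.26 and −0.28, none of them called. With the block and with total counted reads 5 loci were called lower, MIR166a, MIR166b, MIR166d, MIR166e and MIR166g, beside 29% and 28% of all features. With scaling to the other microRNA loci MIR165a and MIR165b turned to 0.87 and 0.84 and were called higher (edgeR adjusted p = 0.0232 and 0.0291), beside 48.4% of all features called higher and a median of 0.91 over them. Neither MIR166b nor MIR166e was called without wild-type 19, paps1-3 16 or paps1-3 26, where MIR166b stood at −0.81, −0.80 and −0.63 and MIR166e at −1.02, −0.83 and −0.94.

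Of the 22 microRNA loci outside the family with a mean of at least 50 TMM-scaled CPM at 21 nt, MIR158b was most like the family's summed 21-nt reads across the 6 libraries, by the root mean square difference of centred log2 values (0.203). MIR824 followed at 0.325 and MIR162b at 0.410, against a median of 0.556 over the 22 loci. Each of them was called lower at 21 nt, MIR158b by 0.87 (SE 0.263, edgeR adjusted p = 0.0364), MIR824 by 0.88 (SE 0.281, adjusted p = 0.0468) and MIR162b by 1.05 (SE 0.283, adjusted p = 0.0222). These loci were picked for following the family in the same libraries, so their calls follow in part from that choice. At 21 nt 5.73% of all features and 19 of the 82 microRNA loci tested were called lower. MIR162 targets DCL1, the enzyme that cuts microRNAs out of their hairpins, and MIR824 the MADS-box gene AGL16.

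The sites that miR165 and miR166 recognise are shown because each is split between exons and is complete in the spliced messenger RNA alone. They lie in the coding sequence of the 5 HD-ZIP III genes and are written 5′ to 3′ as DNA from TAIR10.1, with the bases of the second exon in capitals.
PHB and PHV: ttgggatgaagCCTGGTCCGG
REV and ATHB8: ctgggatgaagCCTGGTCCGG
ATHB15: ctggaatgaagCCTGGTCCGG
Each has 11 bases in one coding exon and 10 in the next. Counting every non-Watson-Crick pair as a mismatch, miR165 has 3 mismatches with the sites of PHB, PHV, REV and ATHB8 and 4 with that of ATHB15, and miR166 has 4 and 3. In PHB (AT2G34710, minus strand) the site covers chr2:14642656-14642666 and chr2:14642530-14642539, and in REV (AT5G60690, plus strand) chr5:24398787-24398797 and chr5:24398889-24398898.

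Few small RNA reads fell on these target genes. On PHB lay 7, 8 and 9 reads in wild-type libraries against 2, 4 and 7 in the mutant, on REV 8, 7 and 11 against 3, 3 and 3, and on PHV 2, 7 and 4 against 1, 1 and 0. ATHB8 had 13, 5 and 6 reads against 0, 1 and 3, and ATHB15 (AT1G52150) 11, 6 and 3 against 1, 3 and 2. None of the 5 passed the filter on low counts, so no change was detectable at this depth. The same held for the 4 LITTLE ZIPPER genes, ZPR1, ZPR2, ZPR3 and ZPR4, whose small proteins bind HD-ZIP III proteins and block them, with 0 to 5 reads in a library. Small RNA reads on a gene do not measure its messenger RNA.

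Of 14 genes that make, load or turn over microRNAs, 6 passed the filter over all lengths and none was called, with 0 at an unadjusted p below 0.05 by edgeR. Over all features 4% were called lower and 14.3% higher, and 4242 of 13464 had an unadjusted p below 0.05. AGO1 had most reads, 125, 207 and 249 in wild type, against 69, 70 and 113 in paps1-3, at −0.05 log2 (SE 0.228, edgeR adjusted p = 0.907). The median log2 fold change of the 6 was 0.03, against −0.15 over all features. With total counted reads 2 of the 6 were called lower, on the scale where 40.3% of all features were.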

How the data were processed

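The authors deposited raw read counts, one whole number per segment of the annotation and read length (18 to 28 nt, per the file headers). The submitters' processing notes name TAIR10 as the build and Trimmomatic, BWA, SAMtools and bedtools as tools. Versions, strand and the treatment of reads with several matches are not given in the sources used here.

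Counts were summed per ID. TAIR10.1 and its RefSeq annotation supplied names, coordinates and sequences. RPM values were taken over all counted reads of a library. edgeR 4.0.16 (R 4.3.3) was run over all lengths and at 20, 21 and 22 nt, with the robust quasi-likelihood test, library sizes of all counted reads, TMM factors, filterByExpr, no block and Benjamini-Hochberg adjustment over the whole table. TMM factors over all lengths were 1.117, 1.373 and 1.517 in wild-type 15, 19 and 25 and 0.5498, 0.8727 and 0.896 in paps1-3 16, 20 and 26. Shares of 21-nt reads were compared by the exact two-sided permutation test, with 20 assignments of libraries (scipy 1.17.1). The edgeR step was tested on simulated counts with 200 known changes. Changes of 2-fold were called in 36% of cases over all lengths, 62% at 21 nt, 52% at 20 nt and 53% at 22 nt. False calls were 2.21% (all lengths) to 7.43% (21 nt) of all calls. The simulation gave every feature the same dispersion and put no shift in composition between libraries, so it does not measure power in these data. PCR reads without molecular identifiers are not independent molecules, so Poisson errors cover counting error only.

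The labels do not say which libraries share an isolation. Deviations from the genotype means correlated across features at 0.40, 0.24 and 0.23 in the pairs 15 and 16, 19 and 20, and 25 and 26, and at −0.29 to 0.12 in other pairs. All 3 adjacent pairs exceeded 0.1, so they served as the block. Libraries 25 and 20, which are not adjacent, also exceeded it, at 0.118. The block was chosen from the counts that were then tested with it, so its p-values are not independent of that choice.

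Alternatives were RLE factors, total counted reads, scaling to microRNA loci outside the family, leaving out the count filter, a tighter filter (mean of 1 CPM and 10 counts in each of 3 libraries), DESeq2 1.42.0, limma-trend (limma 3.58.1, prior count 2), the block, removal of structural RNA and organelle features, and each library left out. Named genes were the members, PAPS1, the HD-ZIP III and LITTLE ZIPPER genes, the machinery gene with most reads and any called, the 3 microRNA loci nearest in pattern and in length profile, and the miR156 and miR157 family. Members and lists were chosen with earlier results of these data known.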

Additional observations from a re-analysis of the deposited data

How the results depend on the processing

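Of all features, 2460 were called over all lengths, 610 at 21 nt, 651 at 20 nt and 508 at 22 nt. With total counted reads the counts were 6237 (all lengths), 1200 (21 nt) and 1024 (22 nt), and with the replicate block on the pairs inferred from the data 3699, 1258, 1365 (20 nt) and 908. Without a count filter they were 359 (21 nt), 345 (20 nt) and 332 (22 nt), without structural and organelle features 354, 385 and 294, and with the microRNA scaling 1271 at 20 nt. Without libraries 15 and 16 they were 954 (21 nt) and 845 (22 nt). Leaving out 1 library gave 1545 to 3135 over all lengths, 369 to 1015 at 21 nt, 361 to 911 at 20 nt and 307 to 877 at 22 nt.

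Of the 9 loci, those called lower over all lengths went from 0 to 9 with total counted reads, 7 with the block and 1 (MIR166d) with DESeq2. At 21 nt they went from 7 to 0 with the microRNA scaling, 0 without structural and organelle features and 1 without a count filter, and lay between 0 and 7 over the left-out libraries. At 20 nt the 2 called became 5 with total reads or the block, 1 with DESeq2, 0 with the microRNA scaling, without a filter or without structural and organelle features, and 0 to 2 over left-out libraries, and 2 were higher with the microRNA scaling. At 22 nt the 1 called became 5 with total reads and 2 with the block.

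Log2 fold changes changed sign as follows. Over all lengths MIR165a stood at 0.023 and MIR165b at 0.038 with the microRNA scaling, and over the left-out libraries they lay at −0.40 to 0.040 and −0.38 to 0.066, above 0 without wild-type 15. At 20 nt the microRNA scaling gave 0.87 and 0.84 for them, and 0.36, 0.20, 0.62, 0.42, 0.67 and 0.31 for MIR166a, b, c, d, f and g, and leaving out structural and organelle features gave 0.19 and 0.17 for MIR165a and MIR165b. At 22 nt MIR165b stood at 0.14 with the microRNA scaling, 0.042 without those features, and at −0.38 to 0.20 over the left-out libraries, above 0 at 0.20, 0.063 and 0.13 without wild-type 15, paps1-3 20 and paps1-3 26. The cause was not tested, except that the filter and the left-out features change which features are tested. The shares of each locus and of the family moved by less than the larger of the 2 genotypes' SDs under every alternative run for them. The family's share difference (paps1-3 minus wild type), −1.64 percentage points, lay at −4.59 to 2.83 over left-out libraries, above 0 without wild-type 15 (2.83), without paps1-3 26 (0.51) and without libraries 15 and 16 (1.10). Adding joined IDs to a member was not run, since none holds one. MIR166b to MIR166g held 1 to 30 reads of 22 nt in a library, and the SE of the 5 tested was 0.450 to 0.592 there, against 0.299 to 0.310 at 21 nt.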
